A study of Mus musculus with 14 samples.

Results

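The 10 genes described here encode the core of the mammalian H3K4 methyltransferase complexes and the enzymes that this core joins. They are the core subunits Ash2l, Wdr5, Rbbp5 and Dpy30 and the methyltransferases Kmt2a, Kmt2b, Kmt2c, Kmt2d, Setd1a and Setd1b. The rule names them by their place in the complexes, with earlier results of these data known, among them the lack of a site at the most upstream start of Ash2l and Dpy30, and they are 10 of 21938 protein-coding genes on the mouse chromosomes. The question put to the data was where H3K4me1 sites lie over these genes, and how the annotation is laid out at Ash2l and Dpy30, which have none at their most upstream transcription start site (TSS).

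The ChIP-seq libraries came from NG3 cells, a single clone of immortalized mouse embryo fibroblasts with floxed Ash2l alleles and a tamoxifen-inducible Cre-ER. In all libraries, control included, exon 4 of the endogenous Ash2l had been deleted, and a lentiviral construct supplied human ASH2L with an N-terminal FKBP12 F36V tag. The PROTAC dTAG-13, which brings this tag to an E3 ubiquitin ligase so that the fusion protein is degraded, was given for 30 min, 2 h, 4 h, 8 h or 16 h, or left out in the control, which the labels call WT. Each of the 6 conditions was measured in 2 libraries, which gives 12 H3K4me1 libraries, and 2 inputs were sequenced, for the control and for 16 h.

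The deposited table holds 160144 sites found over all samples, each with a chromosome, a start and an end. It has no read count, signal or value per library. The depth behind a site, the time points at which it was present and its spread between replicates are therefore unknown, and no statistical test was possible. A site listed over a gene can have been present before the loss of ASH2L, after it, or both, and this table does not tell these cases apart. The paper reports that H3K4me1 gains after this loss lay almost only at promoters. Widths, covered TSSs and free stretches at promoters may thus stem in part from treated time points, which was not tested. Sites changed at single time points were not analysed here. All values below are positions, widths and counts of sites.

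COMPASS complexes write methyl groups on lysine 4 of histone H3. Their catalytic SET domain proteins are weak enzymes alone and gain activity by binding the WRAD core of WDR5, RBBP5, ASH2L and DPY30. SETD1A and SETD1B are known for H3K4 trimethylation at promoters, KMT2A and KMT2B for promoters of selected genes, including CpG-rich ones, and KMT2C and KMT2D for monomethylation at enhancers. H3K4me1 at an active promoter typically lies to both sides of the start, beside the trimethylated nucleosomes closest to it.

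The sequences of 5 promoters show the contrast on which the results for Ash2l, Dpy30 and Rbbp5 turn. Each runs 5′ to 3′ on the strand of the gene over 300 bases of GRCm38.p6 (mm10), from 250 bp before the TSS to 50 bases that begin with it, so that the TSS is base 251. CpG dinucleotides are in capitals. The most upstream starts lie at chr8:25847645-25847944 for Ash2l (minus strand), chr17:74323895-74324194 for Dpy30 (minus strand) and chr1:132477115-132477414 for Rbbp5 (plus strand). The starts at the CpG islands lie at chr8:25840738-25841037 for Ash2l and chr17:74316414-74316713 for Dpy30.
Ash2l, most upstream TSS: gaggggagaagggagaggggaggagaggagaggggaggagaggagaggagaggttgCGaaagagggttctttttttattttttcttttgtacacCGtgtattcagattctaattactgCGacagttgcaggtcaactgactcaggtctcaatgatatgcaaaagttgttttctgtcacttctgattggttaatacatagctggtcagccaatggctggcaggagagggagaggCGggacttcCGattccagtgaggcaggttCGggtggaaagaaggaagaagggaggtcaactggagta
Ash2l, island TSS: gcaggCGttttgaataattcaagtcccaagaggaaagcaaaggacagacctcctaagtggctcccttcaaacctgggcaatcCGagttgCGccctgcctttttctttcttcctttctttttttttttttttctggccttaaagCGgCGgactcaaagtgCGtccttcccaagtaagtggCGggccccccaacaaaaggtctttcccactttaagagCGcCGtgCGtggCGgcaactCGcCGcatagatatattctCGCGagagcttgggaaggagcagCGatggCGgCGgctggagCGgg
Dpy30, most upstream TSS: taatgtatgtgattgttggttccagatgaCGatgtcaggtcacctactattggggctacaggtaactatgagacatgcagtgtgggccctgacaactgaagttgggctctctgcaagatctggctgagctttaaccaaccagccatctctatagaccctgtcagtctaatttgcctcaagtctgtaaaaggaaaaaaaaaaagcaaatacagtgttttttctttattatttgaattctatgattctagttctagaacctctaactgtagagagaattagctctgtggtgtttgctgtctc
Dpy30, island TSS: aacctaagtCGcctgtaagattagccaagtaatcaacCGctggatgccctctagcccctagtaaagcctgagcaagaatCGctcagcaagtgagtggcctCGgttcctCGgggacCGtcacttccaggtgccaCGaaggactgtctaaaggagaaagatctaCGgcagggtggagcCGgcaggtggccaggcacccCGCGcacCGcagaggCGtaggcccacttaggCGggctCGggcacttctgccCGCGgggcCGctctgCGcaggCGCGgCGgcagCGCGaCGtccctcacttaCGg
Rbbp5, most upstream TSS: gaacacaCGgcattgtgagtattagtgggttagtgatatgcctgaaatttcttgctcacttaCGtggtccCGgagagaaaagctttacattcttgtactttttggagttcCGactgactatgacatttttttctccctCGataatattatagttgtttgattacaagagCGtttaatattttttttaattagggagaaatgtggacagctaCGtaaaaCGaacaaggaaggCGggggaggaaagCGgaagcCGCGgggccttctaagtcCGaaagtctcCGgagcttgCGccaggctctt

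The most upstream promoter of Ash2l held 6 CpGs in these bases and that of Dpy30 held 1. The island promoters held 19 and 26. Over protein-coding genes the median was 21 CpGs where an island lay at the most upstream TSS (quartiles 15 to 29) and 3 where none did (quartiles 1 to 6). The upstream starts of Ash2l and Dpy30 were thus as CpG-poor as promoters without an island, while Rbbp5, with 15, sat at the lower quartile of island promoters although no island was called there.

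Of the 10 genes, 8 had an H3K4me1 site within 1 kb of the most upstream TSS, and Ash2l and Dpy30 had none. The background for this count was high. A site lay in this window in 63.9% of all protein-coding genes and in 93% of those with a CpG island within 1 kb of the TSS. With all annotated TSSs of a gene counted, all 10 had a site, against 67.8% of protein-coding genes. An island lay within 1 kb of the most upstream TSS in 7 of the 10, against 53.8% of protein-coding genes, and the exceptions were Ash2l, Dpy30 and Rbbp5. With any TSS counted, 9 had an island, and Rbbp5 was left as the exception. The share of protein-coding genes with an island at any TSS is not given here, so this count is not read against the 53.8%.

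Ash2l, which encodes the subunit that the PROTAC removes, spans chr8:25815996-25847694 on the minus strand, with 11 annotated transcripts that each start at a position of their own. Its most upstream TSS belongs to 1 transcript, Ash2l-204, whose first exon of 116 bp is not coding. The next TSS lies 6907 bp further downstream, and it starts the principal transcript Ash2l-201. A group of 4 starts lies between 6907 and 6932 bp, and further ones lie at 7237 and 7612 bp, all at a CpG island of 497 bp with 60 CpGs. Ash2l-204 joins Ash2l-201 at the exon of 64 bp that is exon 2 of both, and exons 2 to 5 of both have the same positions. It lacks exon 1 of Ash2l-201, which is 206 bp long and coding. The exon of 64 bp is coding in Ash2l-201 and non-coding in Ash2l-204, where the coding part begins in exon 3. The upstream start thus comes with a separate first exon and with a later start of the annotated coding part.

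No H3K4me1 site lay within 1 kb of the upstream start of Ash2l, and the nearest began 5382 bp downstream of it. At the island the picture was the reverse. A site of 1354 bp ended 172 bp before the TSS of Ash2l-201, and a site of 1236 bp began 210 bp after it. Between them lay 381 bp without a site, which held the group of 4 starts. The starts at 7237 and 7612 bp fell inside the downstream site, and 253 of the 497 bases of the island were covered. Sites filled 81% of the window of 1 kb to either side of the TSS of Ash2l-201. The absence of a site at the most upstream TSS of Ash2l was thus an absence at the start of Ash2l-204, outside the island, and not at the start of the principal transcript.

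**Figure D1:**
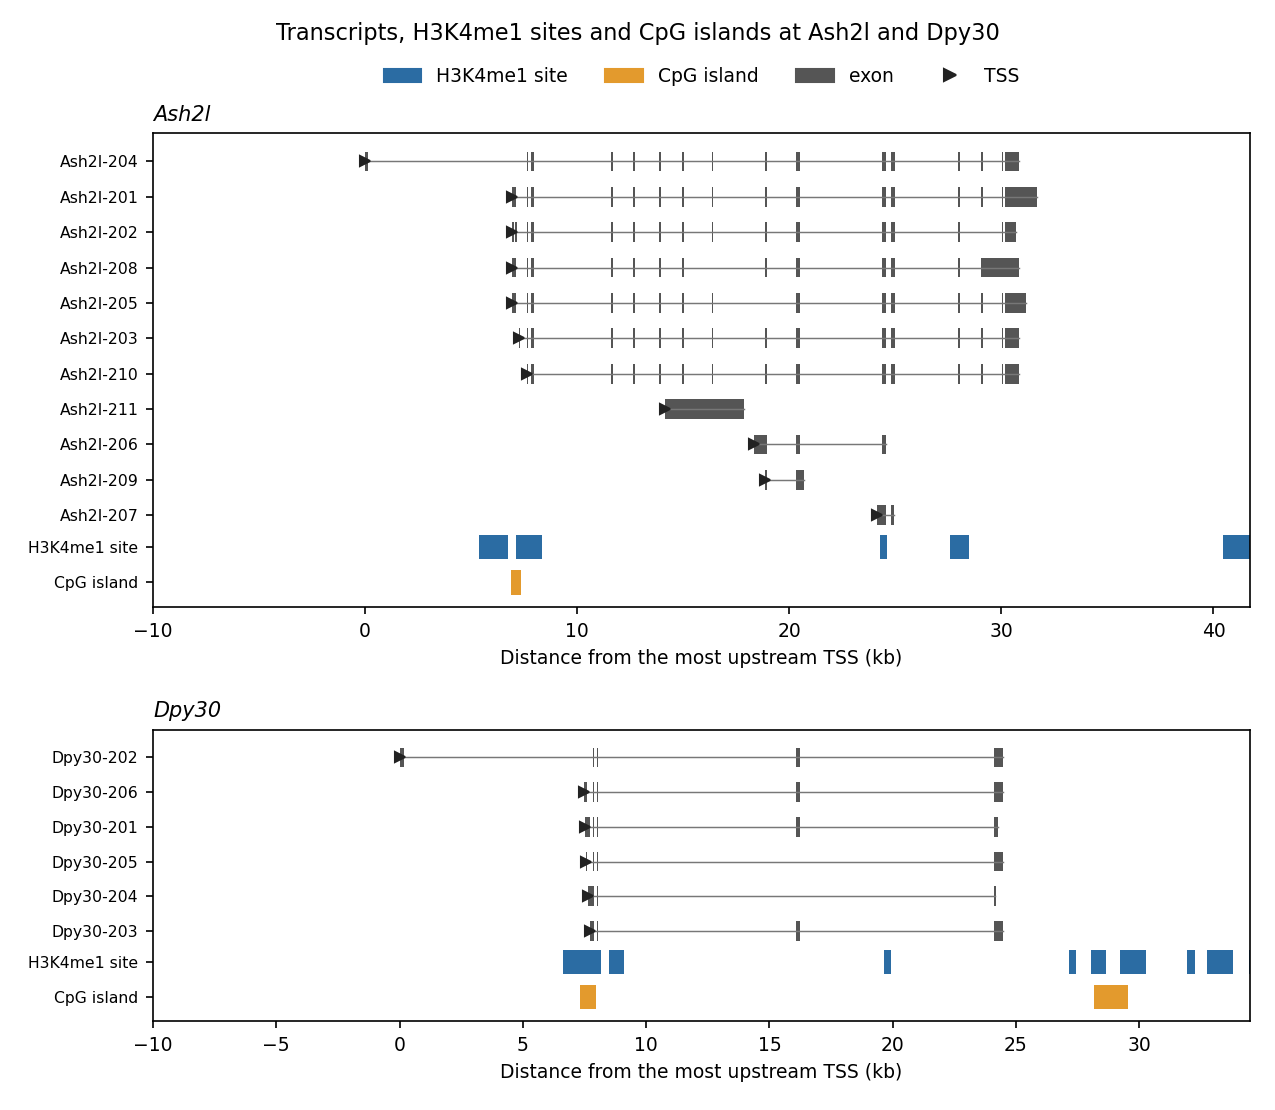
Annotated transcripts of Ash2l and Dpy30 (grey boxes, exons; arrowheads, TSSs) with H3K4me1 sites (blue) and CpG islands (orange), against the distance from the most upstream TSS in kb. In both genes the single transcript at 0 kb starts in a stretch without sites, and the other long transcripts start near 7 kb at the island, where sites lie.

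Dpy30 encodes the smallest core subunit, which binds ASH2L. It spans chr17:74299474-74323944 on the minus strand with 6 transcripts. Its most upstream TSS again belonged to 1 transcript, Dpy30-202, and the remaining 5 started between 7481 and 7741 bp downstream of it, at a CpG island of 629 bp with 65 CpGs. Dpy30-202 is tagged as a principal isoform, as are 3 of these 5, whereas Ash2l-204 carries no such tag. The nearest site began 6636 bp downstream of the upstream start.

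At the island, a single site of 1545 bp reached from 845 bp before to 699 bp after the first of the 5 starts. It covered all 5 of them and all 629 bases of the island. A second site of 614 bp followed in intron 3 of Dpy30-201. Ash2l and Dpy30 therefore shared the arrangement of an upstream start without a site or an island and a downstream island promoter with sites, and differed at the island, where the Ash2l starts of the principal group lay between sites and the Dpy30 starts lay inside a site.

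An upstream start over 5 kb before the next, with neither a site nor an island, and a later start with both was found in 170 of 17056 protein-coding genes with several TSSs (0.997%), Ash2l and Dpy30 included. These genes were named for this pattern, so nothing is read from their part in that count. With the distance alone counted, the most upstream TSS lay over 5 kb before the next in 2211 of these 17056 genes, or 13%. Of the protein-coding genes with several TSSs and no site at the most upstream, 17.6% had a site at a later TSS, as Ash2l and Dpy30 did. RefSeq, a separate annotation of the same build, also lists the upstream starts, with 2 transcripts at 0 and 5 bp in Ash2l and 1 transcript at 0 bp in Dpy30. Its other starts for both genes, 3 positions in Ash2l and 4 in Dpy30, each had a site within 1 kb.

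Wdr5 (chr2:27515157-27536535, plus strand), whose protein binds both the enzyme and RBBP5, had the simplest promoter of the core subunits. A site of 3662 bp covered its TSS, from 1326 bp before to 2335 bp after it, and all of its island of 573 bp. The starts at 4604 and 12615 bp, 1 transcript each, had no site. No further site lay in the gene, and the 2 others of the locus lay in the flanks, 2460 bp wide beyond the start of the neighbouring Brd3 and 857 bp wide at Gm13421.

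Rbbp5 (chr1:132477365-132505659, plus strand), whose protein links WDR5 to ASH2L and contacts the nucleosome, was the exception without an island. Short runs of CpGs lay at its start, 119 bp long with 11 CpGs between 381 and 263 bp before the TSS, and 174 bp long with 19 CpGs from 39 bp before to 134 bp after it. Their GC contents, 61.3% and 66.7%, and ratios of observed to expected CpG, 1.01 and 1.02, met the island rule, and their lengths did not, since an island had to be longer than 200 bp. A site of 438 bp ended 279 bp before the TSS and a site of 1170 bp began 179 bp after it, which left 457 bp free. The starts at 2, 41, 70 and 126 bp lay in the same free stretch, and that at 277 bp lay inside the downstream site. A processed transcript on the other strand, 6030442K20Rik, starts 301 bp upstream, so the sites may belong to either gene or both, which was not tested.

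Among the methyltransferases, Kmt2a, Kmt2b and Kmt2c had a most upstream TSS free of sites between flanking sites, and Kmt2d, Setd1a and Setd1b had a covered one. For Kmt2d this held for the GENCODE start and for 13 RefSeq transcripts, while 2 further RefSeq transcripts start 2873 bp upstream, at a TSS that was neither covered nor between sites. At Kmt2a (chr9:44803355-44881296, minus strand), the upstream site of 2043 bp ended 275 bp before the TSS and the downstream site of 2457 bp began 29 bp after it, so the free stretch was 303 bp. At Kmt2b (chr7:30568858-30588726, minus strand), a site of 1633 bp ended 507 bp before the TSS and a site of 2138 bp began 209 bp after it, which left 715 bp. At Kmt2c (chr5:25271798-25498783, minus strand), sites of 1310 and 2231 bp left 386 bp, from 353 bp before to 34 bp after the TSS.

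The free state of Kmt2c depended on the transcript. Its most upstream TSS is that of a retained-intron transcript, and the principal transcript Kmt2c-201 starts 38 bp further downstream, inside the downstream site. RefSeq places 29 of its Kmt2c transcripts 72 bp upstream of the GENCODE start, in the free stretch. The downstream site of Kmt2a began only 29 bp after its TSS, and 5 RefSeq transcripts start 54 to 56 bp upstream of this TSS, also in the free stretch.

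The covering sites of the other enzymes were wide. That of Kmt2d (chr15:98831669-98871204, minus strand) measured 5517 bp, from 1590 bp before to 3926 bp after the TSS. That of Setd1a (chr7:127776670-127800122, plus strand) measured 3694 bp, from 1004 bp before to 2689 bp after. That of Setd1b (chr5:123142193-123168629, plus strand) measured 4523 bp, from 634 bp before to 3888 bp after. With Wdr5, the 4 covering sites ranged from 3662 to 5517 bp, all above the upper quartile of 2844 bp of covering sites at island promoters of protein-coding genes, whose median was 1979 bp. The site at the island TSSs of Dpy30, with 1545 bp, was narrower than this median.

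**Figure D2:**
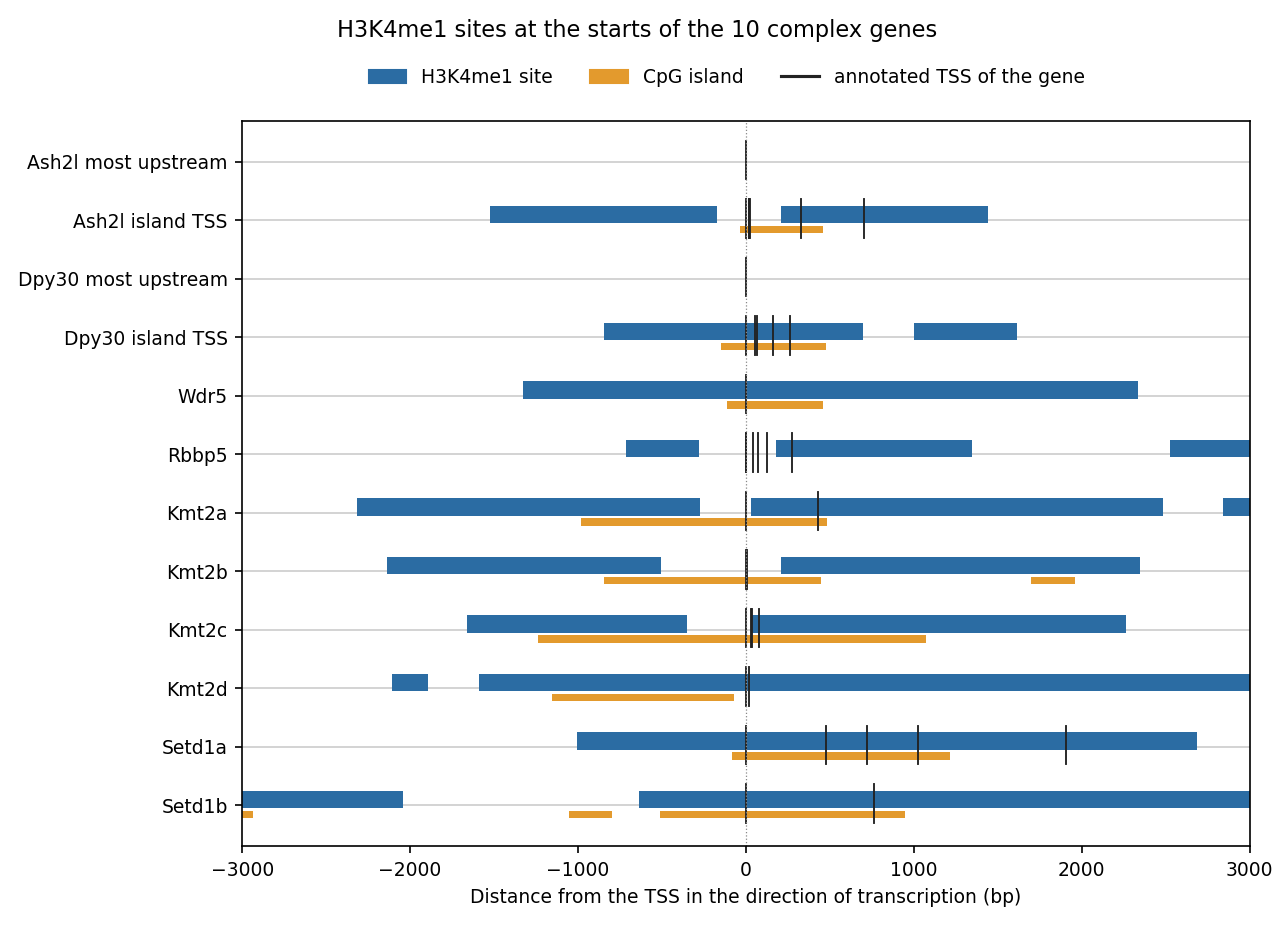
H3K4me1 sites (blue), CpG islands (orange) and annotated TSSs of the gene (black ticks) within 3000 bp of the TSS named at the left, with distance in bp in the direction of transcription. No site or island lies in the rows of the most upstream starts of Ash2l and Dpy30, free stretches of 303 to 715 bp lie at the TSSs of Ash2l (island), Rbbp5, Kmt2a, Kmt2b and Kmt2c, and the TSSs of the other rows lie inside sites.

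With Ash2l and Dpy30 taken at the island, 5 genes had a free TSS between flanking sites (Ash2l, Rbbp5, Kmt2a, Kmt2b and Kmt2c) and 5 a covered TSS (Dpy30, Wdr5, Kmt2d, Setd1a and Setd1b). At the most upstream TSS the counts were 4 and 4. In protein-coding genes with an island at the most upstream TSS, 23.7% had a free TSS between flanking sites and 56.6% had a covered TSS. These sets are unlike. The counts of 5 and 5 take Ash2l and Dpy30 at a chosen TSS and include Rbbp5, which has no island. The shares are at the most upstream TSS and include island genes without a site there. The free stretches of the 5 genes ranged from 303 to 715 bp with a median of 386 bp, beside a median of 421 bp in 2794 island genes with the same arrangement. In those genes the upstream site ended at a median of 268 bp before the TSS and the downstream site began 135 bp after it. At the TSS of the principal transcript, 6 genes were covered and 4 free, since Kmt2c changed sides. Dpy30 was counted as covered there by its lowest-numbered principal transcript. Dpy30-202, also tagged principal, starts without a site within 1 kb. Neither the core subunits nor the KMT2 enzymes were thus of one kind.

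With Ash2l and Dpy30 at the island, sites filled more of the window downstream of the TSS than upstream in 5 of the 10 promoters, more upstream in 2, and both sides alike in 3. At Kmt2a, 72.6% of the 1 kb upstream and 97.1% downstream lay in sites, at Kmt2b 49.4% and 79.1%, at Kmt2c 64.8% and 96.6%, at Rbbp5 43.8% and 82.1%, and at Setd1b 63.4% and 100%. Wdr5, Kmt2d and Setd1a were filled on both sides. The island promoters of Ash2l, with 82.9% upstream and 79% downstream, and Dpy30, with 84.5% and 69.9%, were filled more on the upstream side. In protein-coding genes with an island the medians were 53.5% upstream and 87.6% downstream, and with the TSS itself left out, 64.9% of these genes had more bases covered downstream, 17.1% more upstream and 18% as many on both sides.

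**Figure D3:**
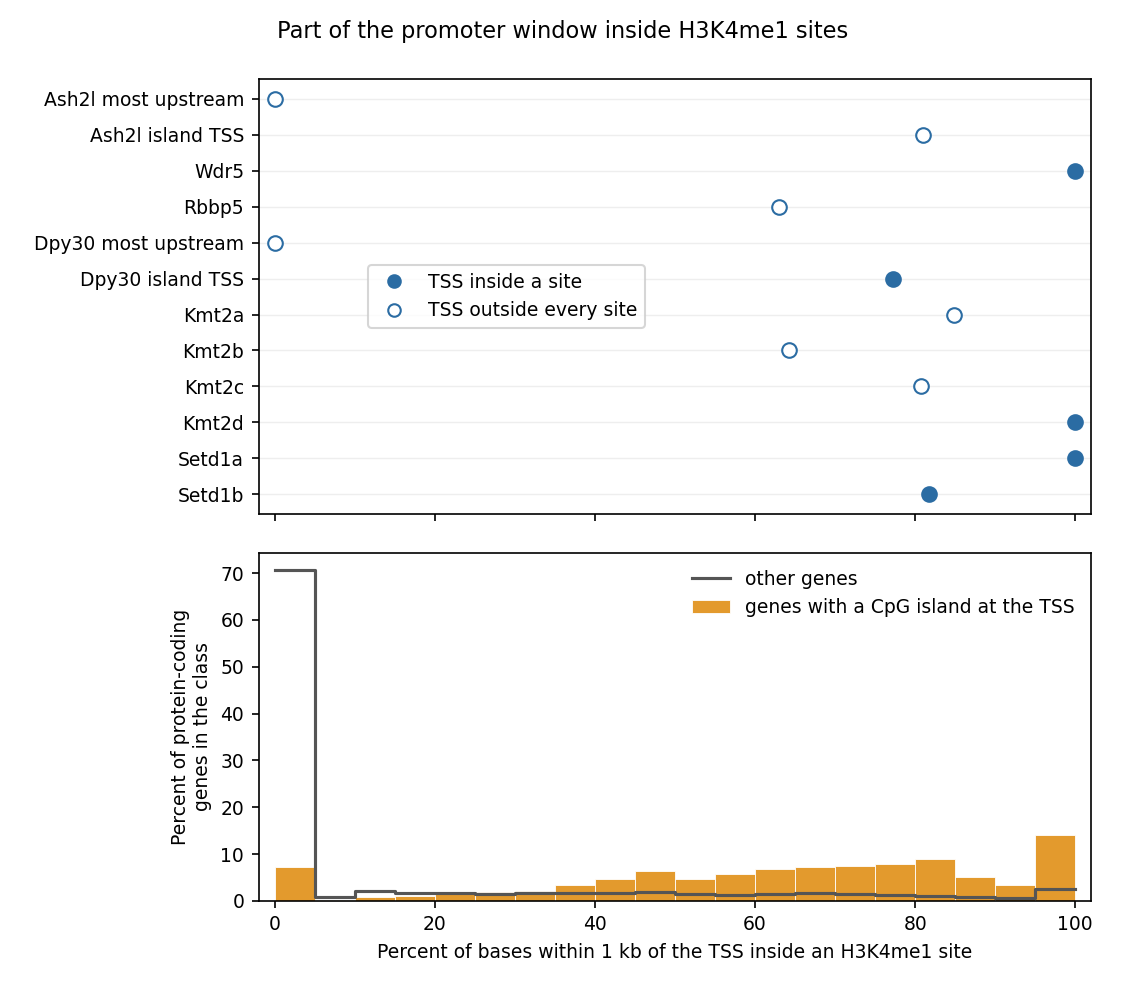
Percent of the bases within 1 kb of the TSS that lay in H3K4me1 sites, for each promoter of the 10 genes (upper part; filled circles, TSS inside a site; open circles, TSS outside every site) and for protein-coding genes in bins of 5% (lower part; bars, genes with a CpG island at the most upstream TSS; line, other genes). The upstream starts of Ash2l and Dpy30 sit at 0, where most genes without an island lie, and the other promoters sit between 63% and 100%, where the median of island genes was 67.5%.

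Ash2l and Dpy30 were again taken at the island. Over both sides together, the promoters were filled to between 63% at Rbbp5 and 100% at Wdr5, Kmt2d and Setd1a, with a median of 81.3%. The median was 67.5% in protein-coding genes with an island (quartiles 46.8 to 83.4%) and 0 in the others, of which 70% had no covered base. These sets are unlike. The 67.5% includes the 7.03% of island genes without a covered base. The 81.3% leaves out the upstream starts of Ash2l and Dpy30, both at 0. The value of Rbbp5, a gene without a called island, was above the upper quartile of 18.6% of such genes.

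The 10 genes have 67 transcripts with 61 distinct TSSs. Every one of the 29 TSSs with an island within 1 kb had a site within 1 kb, and so did 7 of the 32 without an island (21.9%). In all protein-coding genes these shares were 93.9% and 31.7% of TSSs. The 7 exceptions were 6 starts of Rbbp5 and the start of Ash2l-207, a retained-intron transcript 174 bp from a site of 293 bp in exon 11. The 25 TSSs with neither a site nor an island included the upstream starts of Ash2l and Dpy30, and 13 of them were starts inside Kmt2b, Kmt2c and Kmt2d. TSSs of a gene lie close together and share sites, so these counts are not independent.

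The 10 genes with 10 kb to either side, 720.1 kb in all, held 73 sites that covered 88.3 kb, or 12.3% of the bases. No site was shared between the genes. The median locus was covered to 15%, beside 7.6% for all protein-coding genes and 11.6% for those with an island. The median number of sites per locus was 5.5, beside 4 and 5. Of the 73 sites, 17 lay within 1 kb of an own TSS, 24 within 1 kb of only another gene's TSS, 24 in gene bodies away from TSSs and 8 in flanks away from TSSs. Of the 17, 10 also lay within 1 kb of another gene's TSS, so the owner of a promoter site was often not unique. At Kmt2b this other TSS was the annotated start of the miRNA Mir3569.

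Sites at own TSSs were the widest of these kinds, with a median of 1633 bp (quartiles 1236 to 2457 bp). Those at other genes' TSSs had a median of 1212 bp, gene-body sites 548 bp and sites in the flanks 401 bp. The median was 857 bp over the 73 sites and 603 bp over the whole table. Of the 73, 15 (20.5%) were at least 2000 bp wide, against 9.68% of all sites, and 8 of the 15 lay at own TSSs. These sets are unlike, since the 73 were taken around genes and all sites were taken wherever they lay. The medians of gene-body and flank sites were below that of the whole table. Whether the greater widths reflect more than the part of sites at TSSs was not tested.

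**Figure D4:**
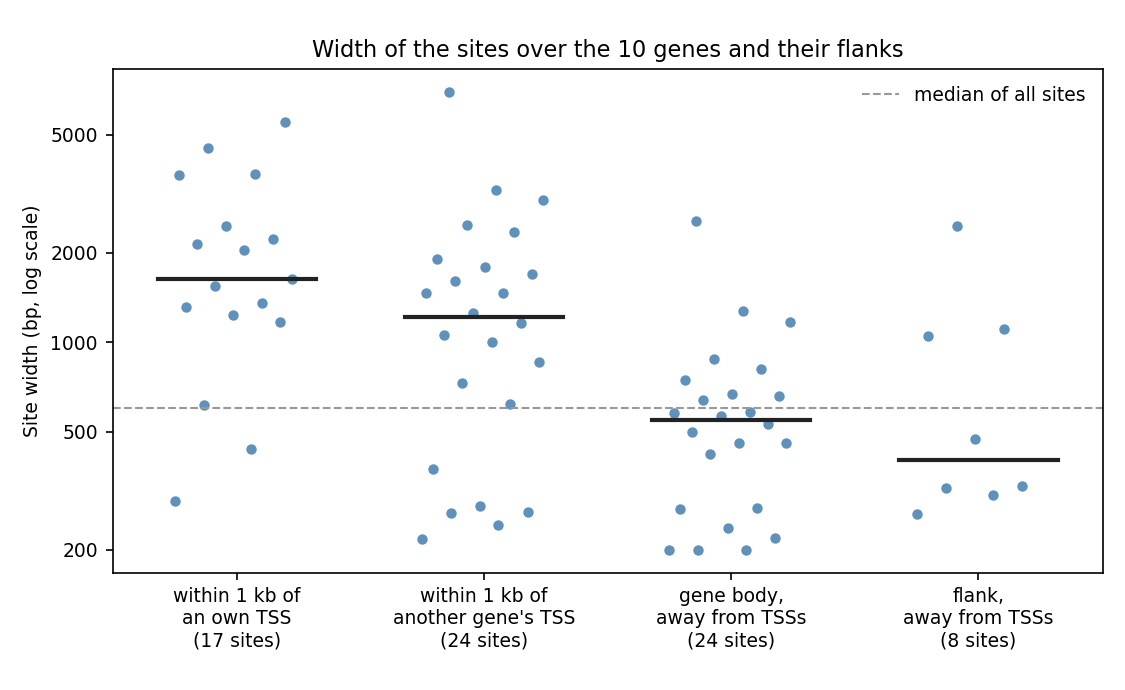
Width in bp (log scale) of each of the 73 sites over the 10 genes and their flanks, by position; bars are medians and the dashed line is the median of all sites, 603 bp. Widths run from 200 to 6971 bp, and the medians fall from 1633 bp at own TSSs and 1212 bp at other genes' TSSs to 548 bp in gene bodies and 401 bp in flanks.

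Kmt2a and Kmt2c, the longest of the 10 genes, held 19 of the 24 gene-body sites and differed in their pattern. Kmt2a, 77942 bp long, held 13 sites, or 1.67 per 10 kb, above the upper quartile of 1.55 in island genes of 50 to 100 kb. This count includes a site of 1913 bp at Ttc36 that is centred in the downstream flank and overlaps the last exon by 32 bp. Without it the density would fall just below this quartile. A series of 6 sites lay in its first intron of 27842 bp, with widths of 2457, 1259, 1275, 1172, 420 and 500 bp in the direction of transcription. A separate group of 6 sites of 237 to 661 bp lay in introns 10 to 21, between 42082 and 54889 bp from the TSS. An antisense transcript, AC061963.1, starts near the promoter of Kmt2a, and its starts lay within 1 kb of the first and second sites of the series.

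Kmt2c, 226986 bp long, held 10 sites, or 0.441 per 10 kb, between the lower quartile (0.319) and the median (0.778) of island genes over 200 kb. Away from its promoter lay 9 sites of 200 to 811 bp, of which 5 were narrower than 300 bp. Among them were all 3 sites of 200 bp, the smallest width in the table. Its locus was covered to 2.9%, the lowest of the 10, beside a median of 5.29% for island genes over 200 kb. The internal starts of Kmt2c between 190233 and 217383 bp had no site within 1 kb.

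Setd1b stood at the other end, with 36.2% of its locus in sites, above the 90th percentile of 26.2% for island genes of 20 to 50 kb. Of this, a site of 6971 bp, the widest of the 73, lay 2045 to 9015 bp upstream of the TSS at starts of the non-coding genes AI480526, 4932422M17Rik and Gm38102 and of Rhof. A site of 2564 bp in intron 5, from 6738 to 9301 bp downstream, was the widest gene-body site away from any TSS. Setd1b also had the most islands, 6 in its locus, and the 2 islands of all 10 loci without a site. These were an island of 257 bp that ended 800 bp before the TSS, 166 bp from the nearest site, and an island of 239 bp in the gene body with 20 CpGs, 8249 bp from any site.

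Setd1a, Kmt2b and Kmt2d held no site in the gene away from TSSs, although Kmt2d is 39536 bp long. Beyond the covered promoter of Kmt2d, its only other site touching the gene was 1461 bp wide over the last exon, exon 55, beside the start of the neighbouring Prkag1. At Setd1a, the further sites lay at Orai3 upstream and at Hsd3b7 downstream. At Kmt2b they lay at Lin37 and at Psenen with U2af1l4. In the gene bodies of the 10 genes, 21 of the 24 sites away from TSSs were centred in introns, 10 of them in intron 1, and 3 in exons.

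**Figure D5:**
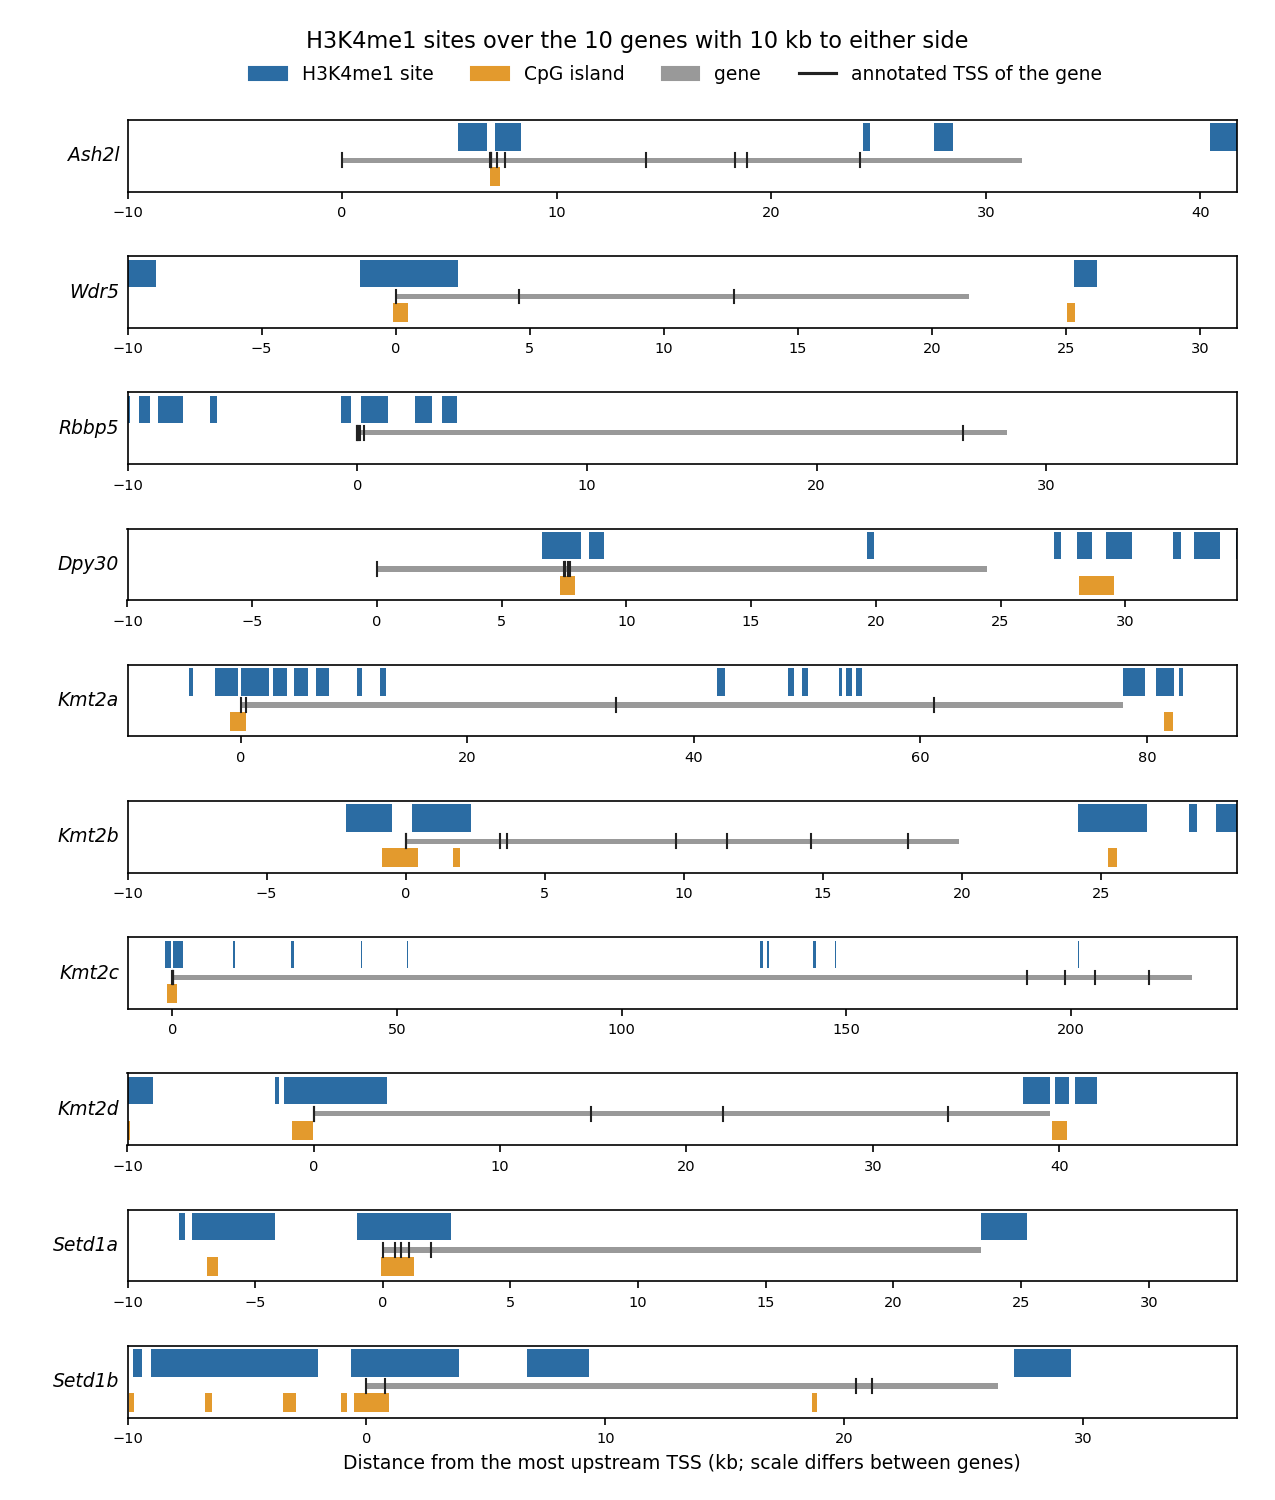
H3K4me1 sites (blue), CpG islands (orange), gene (grey) and annotated TSSs (black ticks) over each of the 10 genes with 10 kb to either side, in kb from the most upstream TSS; the scale differs between genes. Kmt2a shows a series of 6 sites in its first intron and a group of 6 from 42.1 to 54.9 kb, Kmt2c 9 sites of 200 to 811 bp away from its promoter, and Setd1b the largest covered part, 36.2%.

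Of the 22 CpG islands in the loci, 20 overlapped a site (90.9%), against 77.4% of all 16099 islands. Among the 22, 10 lay within 1 kb of an own TSS, 10 within 1 kb of only another gene's TSS and 2 at no annotated TSS. The 16099 islands were taken over all chromosomes, whether or not a TSS was near. These sets are unlike, so the 90.9% is not read as an excess. At Ash2l and Kmt2b, the island was covered to 50.9% and 44.7%, the lowest shares of the own-promoter islands with a site.

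In the body of Ash2l, sites lay also at exon 11 (293 bp, of which 168 bp were exon) and at exon 13 (878 bp, of which 93 bp were exon). The paper names exon 4 as the part deleted in these cells, without positions or a transcript. It was taken here to be exon 4 of Ash2l-201, 89 bp at chr8:25836000-25836088. The same bases are exon 3 of Ash2l-210 and exon 5 of Ash2l-202. It lay outside every site, and the nearest site ended 3254 bp upstream of it. The boundaries of the deletion are not given in the sources used here. The cells also carried the coding sequence of human ASH2L, and whether reads from it add to sites over mouse exons was not tested.

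A TSS of another gene on the other strand lay within 1 kb of the most upstream TSS in 5 of the 10 genes (Rbbp5, Kmt2a, Kmt2b, Kmt2c and Setd1b), against 31.3% of protein-coding genes with an island. Rbbp5 itself has no island. At Kmt2b the neighbour was the miRNA Mir3569, whose annotated start lay 654 bp upstream. The 4 genes with a free most upstream TSS were all among these 5, Kmt2b only through this miRNA. Setd1b, with AI480526 starting 527 bp upstream, had a covered TSS. Whether the neighbouring starts bear on the free stretches was not tested.

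Letters of common promoter motifs were searched on both strands of the same windows as printed above, for all most upstream TSSs. The SP/KLF motif GGGCGG was found in 6 of the 10 genes (Wdr5, Kmt2a, Kmt2b, Kmt2c, Kmt2d and Setd1a), with 12 copies in Kmt2c, and in 43% of protein-coding promoters and 67.3% of those with an island. The NFY motif CCAAT was found in Ash2l with 2 copies and Dpy30 with 1, both at the upstream start, and in 39% of all promoters. The YY1 motif AAGATGGCG was found in Kmt2b alone and in 1.7% of all promoters. The ETS motif CCGGAAG, the CRE motif TGACGTCA and the NRF1 motif GCATGCGC were in none of the 10 and in 10.8%, 2.43% and 3.71% of all promoters. None of these letters was in the windows at the island starts of Ash2l and Dpy30.

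Other genes of the same pathway had sites at similar shares. Of 12 accessory subunits of the complexes, 11 had a site at the most upstream TSS. The exception was Men1, which encodes menin, a partner of KMT2A and KMT2B, and it had an island but no site at any TSS. Of 6 H3K4 demethylases, which remove the methyl groups, Kdm1a, Kdm1b, Kdm5a, Kdm5b and Kdm5c had a site, and the Y-linked Kdm5d had none, like all of chromosome Y. All genes of both lists but Hcfc2 and Kdm5d had an island at this TSS, so their counts are read beside the 93% of island genes.

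For the labelled cell type, 9 of 10 fibroblast and mesenchymal marker genes had a site at the most upstream TSS, with Col3a1 as the exception. Of 11 markers of other cell types, 3 had a site there (Epcam, Cdh1 and Pecam1) and 6 had a site at any TSS. Over all protein-coding genes the shares were 63.9% at the most upstream TSS and 67.8% at any TSS. An island lay at the most upstream TSS in 5 of the 10 and 3 of the 11 genes. Among island genes the share with a site was 93%. Whether the contrast between the lists reflects the cell type was not tested. H3K4me1 at a promoter does not show that a gene is transcribed.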

How the data were processed

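H3K4me1 ChIP-seq reads were aligned by the authors to mm10 with BWA and filtered with SAMtools, and broad peaks were called with MACS2 after replicates had been merged. Versions and thresholds are not given in the sources used here. The deposited table holds positions in bases, another unit than a signal: the start, counted from 0, and end of 160144 sites over all samples. Printed positions are counted from 1. Nothing per library could be analysed, so no column was assigned to a sample and no test was made. Sites were compared with GENCODE M21 and with RefSeq, and sequence was read from GRCm38.p6. A promoter was the TSS with 1000 bp to either side, a locus the gene with 10000 bp to either side, and a site counted with at least 1 base in the window. A CpG island was a maximal run scored on the repeat-masked bases (17 for each CpG, 1 lost for any other base) that was longer than 200 bp, at least 50% GC and had observed CpGs over 0.6 times those expected. The TSS of the principal transcript was that of the lowest-numbered APPRIS principal transcript. Where no island start was shared by more transcripts than another, the most upstream was taken as the island TSS. Python 3.11.15, numpy 2.4.6, numba 0.67.0 and matplotlib 3.10.9 were used, and the functions were tested on simulated positions and islands. The genes named were the 10 members, genes that start in their loci, and members of the lists that were exceptions. The members and lists were chosen with earlier results of these data known. Alternatives concerned windows, flanks, TSS sets, site widths, merging and the island rule.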

Additional observations from a re-analysis of the deposited data

How the results depend on the processing

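No paired analysis was possible because the sites carry no measurement of single libraries, and no replicate could be left out for the same reason. Of 52 alternatives, 3 of them, at the TSS of the principal transcript, were chosen after seeing the data, and 11 moved the value, by over 1.5 times for a count or width or past the binomial interval for the share of bases. That interval treats neighbouring bases as independent, and none of the 5 alternatives past it moved the share by over 1.5 times. At the principal TSS, all 10 genes had a site, with Dpy30 taken at the lowest-numbered of its principal transcripts, which starts at the island. Dpy30-202, also tagged principal, starts at the most upstream TSS, without a site within 1 kb. The share of all protein-coding genes with a site at the principal TSS is not given here. At the most upstream TSS, 8 of the 10 genes had a site under each of the 8 other alternatives. With sites within 1 kb of each other merged, no gene kept a free TSS between flanking sites (0 against 4), the loci held 45 sites in place of 73 with a median width of 2136 bp in place of 857 bp, and 14.2% of bases were covered in place of 12.3%, since the merging joins the flanking sites. The free TSS was counted in 3 genes with 500 bp windows (without Kmt2b), with basic transcripts (without Kmt2c) and with sites of at least 500 bp (without Rbbp5). Without flanks the loci held 41 sites and 8.42% of bases were covered. With flanks of 5 kb and 20 kb, 11.3% and 11.9% were covered. With only sites of at least 500 bp, 11.3% were covered and the median width was 1292 bp. With only islands of at least 500 bp, 12 of 12 islands overlapped a site, in place of 20 of 22.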
